A study of Rattus norvegicus with 12 samples.

Results

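Potassium channel subunits of pancreatic islets were described in a rat model of poor fetal growth. The set took every gene of the deposited count table whose symbol begins with Kcn and follows the pattern of letters and a number, together with Abcc8 and Abcc9, which encode sulfonylurea receptors. Of 94 such symbols with 125 transcripts, 69 reached 0.5 CPM (counts relative to the library total) in at least 3 of 12 libraries and were kept as members, each by its transcript with the highest mean count. They stood among 25888 symbols and 30309 transcripts in all. Every one of the 69 was also among the 20733 transcripts with enough counts to be tested. The 25 symbols below the limit are not described, and they include Kcna1, Kcna3 and Kcnj16. Just inside the limit were Kcnk10, Kcnj10 and Kcnk13, which held at least 0.566, 0.586 and 0.586 CPM in their 3 highest libraries, and just outside were Kcna3, Kcnab3 and Kcnc1, for which the same value was 0.493, 0.449 and 0.382 CPM. In all 12 libraries 38 members reached 0.5 CPM. Kcnj6 reached it only in IUGR islets at 10 weeks and Kcnj4 only in control islets at 2 weeks, so for these 2 the limit itself asked for a high group. Kcnk10 and Kcnq3 reached it in 4 libraries and Kcnd3 and Kcnmb4 in 5, in 2 groups each. IUGR islets at 2 weeks were among those groups in each case, and without that group these genes would miss the limit. All genes named here for a group are kept in the counts of calls below. Their calls that involve the group named were favoured by the limit.

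The animals were Sprague Dawley rats, and the RNA was total RNA of isolated islets. In the IUGR groups (intrauterine growth restriction) the uterine arteries of the dam had been tied on both sides at embryonic day 18, and the offspring were studied at 10 weeks and at 2 weeks of age. The control groups were offspring of the same ages whose litters had been reduced to 8 pups. All dams and offspring ate standard chow. The labels do not say whether control dams had a sham operation, which sex the animals had, or whether islets of several animals were pooled. Each of the 4 groups had 3 numbered libraries. Nothing says whether they came from separate animals, so p-values measure the spread between these libraries, which may be technical. Islets came from collagenase digestion and a density gradient, which leaves some surrounding tissue.

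Potassium channels set the resting voltage of endocrine cells and end their action potentials. In the beta cell the ATP-sensitive channel, built from the pore subunit encoded by Kcnj11 and the sulfonylurea receptor encoded by Abcc8, closes when glucose metabolism raises ATP, and the cell then depolarises, takes up calcium and secretes insulin. Voltage-gated and calcium-activated channels repolarise the cell, and auxiliary subunits change how the pores open and how many reach the membrane. Other cells in an islet preparation have channels of their own, such as the ATP-sensitive channel of vascular muscle and pericytes (Kcnj8 with Abcc9) and the slow channel of rodent acinar cells (Kcnq1 with Kcne1).

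The libraries held 30396759 to 64201627 counts. Libraries differed in their content of digestive enzyme transcripts from acinar cells, which surround the islets. A list of 26 acinar genes took 0.602 to 2.25% of counts in IUGR and 13.5 to 45.6% in control libraries at 10 weeks, and 4.23 to 9.09% in IUGR and 20.9 to 41.0% in control libraries at 2 weeks. At either age the IUGR and control shares did not overlap, so condition and acinar content cannot be told apart by group alone. A list of 14 genes of endocrine cells in general took 1.13 to 1.28% in IUGR and 0.226 to 0.556% in control libraries at 10 weeks, and 0.418 to 0.468% in IUGR and 0.142 to 0.367% in control libraries at 2 weeks. The insulin genes Ins1 and Ins2 were present in every library, and none of the markers of either list was at 0 in any library. In bulk RNA fewer cells of a type and less RNA per cell cannot be told apart.

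Values below are TMM-scaled CPM, which is CPM after a scaling that lines up the bulk of transcripts between libraries. They are not divided by transcript length, so levels of different genes are not compared. Log2 fold changes are given with ± as the standard error, and adjusted p-values are those of edgeR's quasi-likelihood test with Benjamini-Hochberg adjustment over all 20733 transcripts, with 0.05 as the threshold. A second scale set each library by the geometric mean of its endocrine list. On that scale the median of all transcripts moved to -0.81 for IUGR against control at 10 weeks, -0.38 for IUGR against control at 2 weeks, -1.32 for 10 against 2 weeks in IUGR islets and -0.94 in control islets, and to -0.37 for the difference between ages. On the TMM scale each of these medians lay between -0.01 and 0.05. Many positive values turned negative with this choice and no negative member value turned positive. Of the members' positive log2 fold changes, 28 of 34 turned at 10 weeks, 20 of 45 at 2 weeks, 28 of 39 with age in IUGR islets, 25 of 37 with age in control islets and 16 of 36 in the difference between ages. Where a called direction turned, the value on the endocrine scale is given beside it.

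At 10 weeks IUGR islets differed from control islets in 22 of the 69 members. Of the members 10 rose in IUGR islets, against 12.4% of all transcripts tested, and 12 fell, against 15.5% of all transcripts. The shares of members, 14.5% higher and 17.4% lower, were thus near those of the whole table, and the median of the members was -0.00 on the log2 scale, where that of all transcripts was -0.01. Those that rose included Kcnma1, the pore of the large-conductance calcium-activated channel, Kcna4, a fast inactivating voltage-gated pore, and 2 small-conductance calcium-activated pores, Kcnn3 and Kcnn1, of which all but Kcna4 had a negative value on the endocrine scale. Those that fell included the KCNQ pores Kcnq1, Kcnq3 and Kcnq5 and the auxiliary subunits Kcne1 and Kcne4. In 32 members the 3 IUGR and the 3 control values did not overlap, against 40.2% of all transcripts.

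On the endocrine scale 0 members were called higher at 10 weeks, against 0.106% of all transcripts, and 32 lower, against 66.9%, where the TMM scale gave 10 and 12, and over all transcripts the share of calls that were higher was 0.158% in place of 44.5%. All 12 members called lower stayed negative on the endocrine scale. Since that scale moved 10-week values down as a whole, to a median of -0.81, their kept direction says nothing particular to them. In a fit that also held the log2 acinar level of each library, called the acinar-adjusted fit below, 1 member was called higher, against 3.31% of all transcripts, and 5 lower, against 7.25%, and 4 of the 22 calls were kept, among them those of Kcnq3, Kcns3 and Kcne4.

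**Figure D1:**
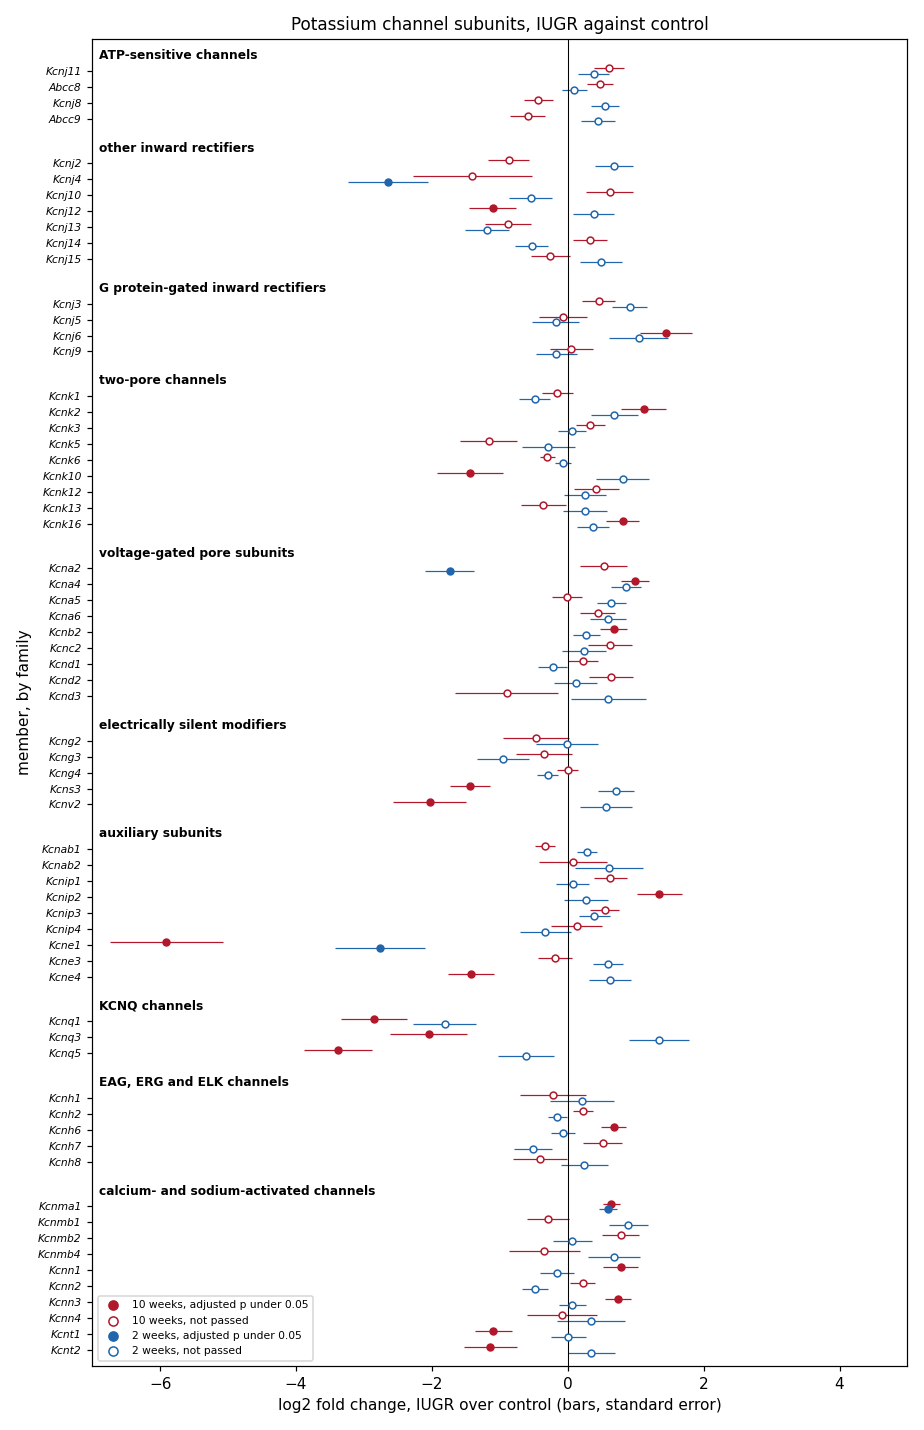
Log2 fold change of IUGR over control islets for 65 of the 69 members (x axis, bars are standard errors), in rows by family, at 10 weeks (red) and 2 weeks (blue), with filled points for an adjusted p under 0.05. On this TMM scale the 10 filled red points right of 0 and the 11 left of it include Kcne1 farthest left, and 4 blue points are filled.

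At 2 weeks few members differed. In IUGR islets 1 member rose, Kcnma1, against 1.66% of all transcripts, and 3 fell, Kcna2, Kcne1 and Kcnj4, against 2.21% of all transcripts. The members' median log2 fold change was 0.25 and that of all transcripts 0.05. In 26 members the groups did not overlap, against 38.7% of all transcripts. The 4 calls lay close to the threshold, with adjusted p-values between 0.0431 and 0.0488, and none held in every fit that left out 1 library. With any 2-week IUGR library, any 10-week IUGR library or control replicate 1 or 2 of the 2-week age left out, 0 members were called higher or lower by edgeR, while 11 to 21 members had an unadjusted p under 0.05. Over all transcripts these fits called only 0 to 46 higher and 0 to 77 lower, where the main fit called 345 and 459. The losses were thus not particular to the members. Without control replicate 3 at 10 weeks 0 were called higher and 1 lower, where all transcripts gave 60 and 225. Without control replicate 3 at 2 weeks 2 were called higher and 5 lower (all transcripts 1142 and 1208). The same member counts came without control replicate 2 at 10 weeks (all transcripts 512 and 1292). DESeq2 called 5 higher, against 9.17% of the transcripts it gave an adjusted p, and 5 lower, against 7.32%.

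Calls were most numerous between 2 and 10 weeks in IUGR islets, as they were over all transcripts. In IUGR islets 22 members were higher at 10 than at 2 weeks, against 27.3% of all transcripts, and 23 were lower, against 29.2% of all transcripts. In control islets 16 were higher, against 17.2% of all transcripts, and 5 were lower, against 15.1% of all transcripts. The median of the members was 0.07 in IUGR and 0.03 in control islets, where that of all transcripts was 0.00 and -0.00. The ages did not overlap in 53 members in IUGR islets, against 69.4% of all transcripts, and in 20 in control islets, against 41.1% of all transcripts. Kcnma1, Kcna4 and Kcnj15, an inward rectifier pore, rose with age in both.

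The 2 age comparisons share no library. Of the members higher with age, 15 were the same in both, which was 68.2% of those in IUGR islets and 93.8% of those in control islets. Over all transcripts called higher the shared ones were 49.9% and 79.3%. They included Kcnj11, Kcnj3, Kcnj6, Kcnj15, Kcnk2, Kcna4, Kcna6, Kcnb2, Kcnip3, Kcnh2, Kcnma1, Kcnmb2, Kcnn2 and Kcnn3, of which on the endocrine scale Kcnj11, Kcnh2 and Kcnb2 were negative in both, Kcnj3 and Kcna6 in IUGR and Kcnn2 in control islets. Of those lower with age, 4 were the same, among them Kcnj8, Kcnv2 and Kcne3, which was 17.4% of those in IUGR islets and 80% of those in control islets, where over all transcripts the shares were 38.6% and 74.8%. None was called in opposite directions. On the endocrine scale 4 members rose with age in IUGR islets, among them Kcnma1, Kcna2 and Kcna4, against 1.58% of all transcripts, and 47 fell, against 82.4%. In control islets on that scale 5 rose, among them Kcnma1, Kcna4, Kcnj15 and Kcnj3, against 2.27% of all transcripts, and 36 fell, against 71.3%. Over all transcripts the share of calls that were higher was then 1.88% in place of 48.3% in IUGR islets and 3.08% in place of 53.2% in control islets.

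**Figure D2:**
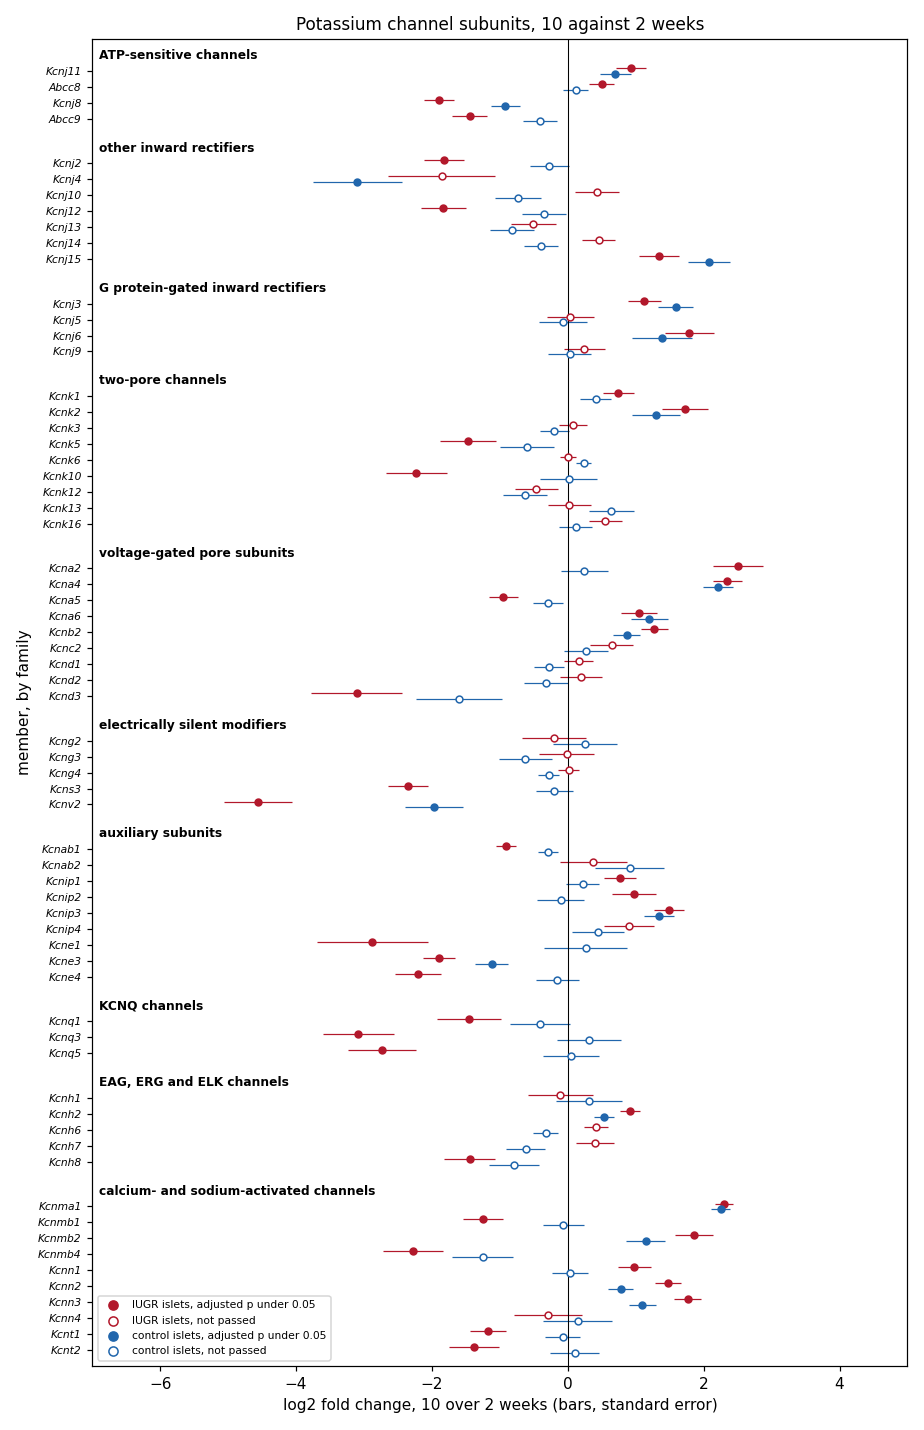
Log2 fold change of 10 over 2 weeks for 65 of the 69 members (x axis, bars are standard errors), in rows by family, in IUGR islets (red) and control islets (blue), with filled points for an adjusted p under 0.05. On this TMM scale Kcna4 and Kcnma1 lie right of 2 in both, and 22 filled red and 4 filled blue points lie left of 0.

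The effect of IUGR at 10 weeks minus that at 2 weeks was tested as 1 contrast in the same fit. In 1 member, Kcna2, this difference was positive and passed, against 3.97% of all transcripts. In 8 it was negative and passed, among them Kcnq3, Kcnq5, Kcnv2, Kcnk10, Kcns3, Kcne4 and Kcnj2, against 10.4% of all transcripts. The members' median was 0.10 and that of all transcripts -0.00. All 9 passed on the endocrine scale as well, which moved the median of all transcripts to -0.37 and so favoured the negative calls. On that scale 1 member was positive, against 0.0916% of all transcripts, and 11 negative, against 11.2%. Kcna2, Kcne4, Kcnq3, Kcnq5 and Kcns3 passed in all 12 fits that left out 1 library, and the other 4 did not, with the values of Kcnv2, Kcnk10 and Kcnj2 given below.

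Kcnj11 and Abcc8 encode the pore and the regulatory receptor of the islet ATP-sensitive channel, the target of sulfonylurea drugs. Kcnj11 had 57.8, 49.2 and 57.7 TMM-scaled CPM in IUGR and 46.5, 33.2 and 28.1 in control islets at 10 weeks. It had 29.99, 26.7 and 29.8 in IUGR and 15.8, 20.4 and 30.2 in control islets at 2 weeks. All 3 IUGR libraries at 10 weeks lay above every other library, and the 2-week groups overlapped. The difference between IUGR and control islets did not pass at 10 weeks (log2 fold change 0.61 ± 0.22, adjusted p = 0.0642) or at 2 weeks (0.38 ± 0.22, adjusted p = 0.282), and on the endocrine scale these values were -0.15 and 0.03. Kcnj11 was higher at 10 than at 2 weeks in IUGR islets (0.93 ± 0.23, adjusted p = 0.00462) and in control islets (0.70 ± 0.23, adjusted p = 0.036), but on the endocrine scale these values were -0.38 and -0.20. The control call was lost without control replicate 1 at 10 weeks (adjusted p = 0.155), and without control replicate 1 or 2 at 2 weeks (adjusted p = 0.104 and 0.109) or IUGR replicate 1 or 3 at 2 weeks (adjusted p = 0.0516 and 0.0511).

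Abcc8 had 147, 116 and 154 TMM-scaled CPM in IUGR and 112, 103 and 84.1 in control islets at 10 weeks, and 104, 96.9 and 94.4 in IUGR and 68.2, 89.2 and 119 in control islets at 2 weeks. The 10-week groups did not overlap, while the 2-week control values spanned those of the IUGR islets. Abcc8 did not pass between IUGR and control islets at 10 weeks (log2 fold change 0.48 ± 0.19, adjusted p = 0.0791) or 2 weeks (0.09 ± 0.19, adjusted p = 0.769), with -0.31 and -0.27 on the endocrine scale. With age it was higher in IUGR islets (0.50 ± 0.19, adjusted p = 0.0408) and did not pass in control islets (0.12 ± 0.19, adjusted p = 0.657), and on the endocrine scale the values were -0.82 and -0.78. The IUGR call was lost without IUGR replicate 1, 2 or 3 at 2 weeks, IUGR replicate 1 or 3 at 10 weeks or control replicate 2 at 2 weeks, with adjusted p-values of 0.0532 to 0.125, and it was lost in the acinar-adjusted fit too (log2 fold change 0.22, adjusted p = 0.44).

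Kcnj8 and Abcc9 encode the pore and the receptor of the ATP-sensitive channel of vascular muscle and pericytes. Kcnj8 had 6.68, 8.99 and 10.7 TMM-scaled CPM in IUGR and 8.78, 13.02 and 13.9 in control islets at 10 weeks, and 29.2, 34.7 and 34.6 in IUGR and 17.5, 23.7 and 26.2 in control islets at 2 weeks. Every 10-week library lay below every 2-week library. Kcnj8 fell with age in IUGR islets (log2 fold change -1.90 ± 0.22, adjusted p = 4.01e-05) and in control islets (-0.92 ± 0.21, adjusted p = 0.00828). Abcc9 had 19.98, 21.2 and 27.9 TMM-scaled CPM in IUGR and 27.00, 40.98 and 35.9 in control islets at 10 weeks, and 58.02, 73.8 and 56.01 in IUGR and 27.9, 57.1 and 53.3 in control islets at 2 weeks. It fell with age in IUGR islets (log2 fold change -1.44 ± 0.26, adjusted p = 0.000712), where the ages did not overlap, and its value in control islets, where they did, was -0.41 ± 0.25, adjusted p = 0.23. Between IUGR and control islets neither gene passed at either age, with log2 fold changes at 10 weeks of -0.43 ± 0.22 for Kcnj8 and -0.59 ± 0.26 for Abcc9. At 2 weeks these were 0.55 ± 0.21 for Kcnj8 and 0.44 ± 0.25 for Abcc9. In the acinar-adjusted fit Abcc9 fell at 10 weeks (log2 fold change -1.94, adjusted p = 0.027).

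A list of 8 mural cell genes, the markers of pericytes and vascular muscle, moved beside them between IUGR and control libraries and with age in IUGR islets. It did so less clearly with age in control islets, where Kcnj8 fell. Its summed level was 371 to 744 TMM-scaled CPM in IUGR and 786 to 975 in control libraries at 10 weeks, and 1543 to 2290 in IUGR and 853 to 1195 in control libraries at 2 weeks, with none of its markers at 0. Of the 8, 7 fell with age in IUGR islets. In control islets 1 rose and 1 fell, with a median log2 fold change of -0.28. The part of mural cells in the values of Kcnj8 and Abcc9 was not tested.

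The balance of the islet and vascular forms was also computed within each library, a ratio that no scaling changes. The 6 ratios computed were chosen after the values had been seen, and 24 tests of them were made, over which the smallest adjusted p is 0.16. The ratio of Kcnj11 to Kcnj8 counts had a median of 5.47 in IUGR and 2.55 in control libraries at 10 weeks, and 0.860 in IUGR and 0.905 in control libraries at 2 weeks. That of Abcc8 to Abcc9 counts had a median of 5.52 in IUGR and 2.52 in control libraries at 10 weeks, and 1.69 in IUGR and 2.23 in control libraries at 2 weeks. Both of these ratios were higher in all 3 IUGR than in all 3 control libraries at 10 weeks, and higher in all 10-week than in all 2-week IUGR libraries (two-sided exact permutation p = 0.1 in each case, the smallest that 3 against 3 allows). The ratio of Kcnj11 to Abcc8 counts had a median of 0.393 in IUGR and 0.335 in control libraries at 10 weeks, and 0.289 in IUGR and 0.232 in control libraries at 2 weeks. It did not overlap between the ages in either condition (exact permutation p = 0.1 each), nor between IUGR and control islets at 2 weeks (exact permutation p = 0.1), and it overlapped between them at 10 weeks (exact permutation p = 0.3). The ratio of Kcnj8 to Abcc9 counts had a median of 0.384 in IUGR and 0.325 in control libraries at 10 weeks, and 0.503 in IUGR and 0.493 in control libraries at 2 weeks, without overlap between the ages in either condition (exact permutation p = 0.1 each).

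**Figure D3:**
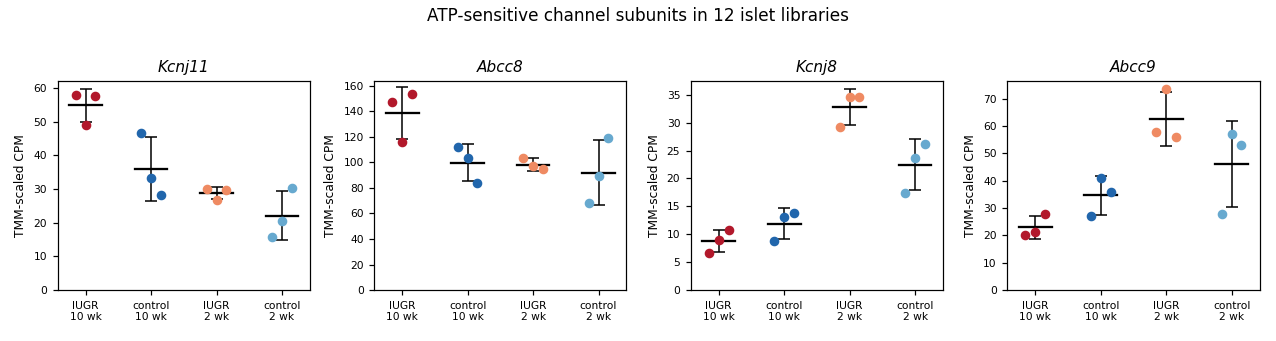
TMM-scaled CPM (y axis, linear from 0) of Kcnj11, Abcc8, Kcnj8 and Abcc9 in each of the 12 libraries, with groups along the x axis, points for libraries, and a bar with whiskers for the mean and SD. Kcnj11 is highest in the 3 IUGR libraries at 10 weeks, and Kcnj8 is lower in the 6 libraries of 10 weeks than in the 6 of 2 weeks.

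Kcnj8 and Abcc9 neighbour each other on rat chromosome 4, and Kcnj11 and Abcc8 on chromosome 1, in the RefSeq gene table of assembly GRCr8. The 250 bases before the annotated starts of Kcnj8 (chr4:177246549-177246798, minus strand) and Abcc9 (chr4:177386349-177386598, minus strand) are shown because both genes fell with age in IUGR islets and encode partners of 1 channel. They are from RefSeq on GRCr8, read 5′ to 3′ on the strand of the gene, with each GC box, GGGCGG on either strand, in capitals.
Kcnj8: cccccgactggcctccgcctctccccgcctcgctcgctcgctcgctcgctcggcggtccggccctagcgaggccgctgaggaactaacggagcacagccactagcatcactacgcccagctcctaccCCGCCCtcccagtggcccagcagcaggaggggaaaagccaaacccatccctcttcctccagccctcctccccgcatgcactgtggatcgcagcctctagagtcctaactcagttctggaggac
Abcc9: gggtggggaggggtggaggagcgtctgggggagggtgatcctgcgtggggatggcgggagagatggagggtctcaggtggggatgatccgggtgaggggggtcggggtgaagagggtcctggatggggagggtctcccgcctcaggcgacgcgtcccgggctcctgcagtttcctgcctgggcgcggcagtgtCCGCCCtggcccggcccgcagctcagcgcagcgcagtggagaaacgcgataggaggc
Each window held 1 GC box, at -123 in Kcnj8 and at -57 in Abcc9 counted from the start, and their GC contents were 66.8% and 71.2%. No other motif searched was in either window. Entries were matched by symbol, which gave 1 or more for 48 members. Some members had several windows, so the shares below are of windows and not of genes. Among 33469 rat promoter windows of this length 30.5% held GGGCGG on either strand, and among the 53 windows of members 28 did (52.8%). The CCAAT box was in 34% of all windows and in 26.4% of those of members. The TATA box, searched as TATAAA, was in 12.9% of all windows and in 1.89% of those of members. The cyclic AMP response element, searched as TGACGTCA, was in 1.59% of all windows and in 0 of those of members, and an E box, searched as CATCTG, was in 14% of all and in 3.77% of those of members, each on either strand. A match is a description of the letters only.

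Among the other inward rectifiers, pores that pass potassium best near the resting voltage, Kcnj15 rose with age and 3 members fell in at least 1 comparison. Kcnj15 had 2.87, 1.92 and 2.52 TMM-scaled CPM in IUGR and 2.06, 3.29 and 3.36 in control islets at 10 weeks, against 0.893, 0.823 and 1.17 in IUGR and 0.401, 0.802 and 0.824 in control islets at 2 weeks. The 10-week libraries all lay above the 2-week libraries. It rose with age in IUGR islets (log2 fold change 1.34 ± 0.29, adjusted p = 0.00255) and control islets (2.08 ± 0.31, adjusted p = 0.000788), with 0.03 and 1.25 on the endocrine scale. Kcnj2, a classical strong inward rectifier, had 1.06, 1.07 and 1.19 TMM-scaled CPM in IUGR and 1.204, 1.998 and 2.88 in control islets at 10 weeks, and 3.67, 4.73 and 3.29 in IUGR and 1.92, 2.37 and 3.02 in control islets at 2 weeks. IUGR islets lay below control islets at 10 weeks and above them at 2 weeks, without overlap. Neither difference passed (-0.87 ± 0.30, adjusted p = 0.0515 at 10 weeks and 0.67 ± 0.28, adjusted p = 0.146 at 2 weeks), while the difference between them did (-1.54 ± 0.41, adjusted p = 0.0298). That call was lost in 9 of 12 fits without 1 library, and held without control replicate 1 at 10 weeks, IUGR replicate 3 at 2 weeks or control replicate 3 at 2 weeks (adjusted p of 0.0509 to 0.0784 where lost). Kcnj2 fell with age in IUGR islets (-1.82 ± 0.29, adjusted p = 0.000372).

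Kcnj4, of the same strong type, had 0, 0.0996 and 0.0741 TMM-scaled CPM in IUGR and 0.158, 0.09404 and 0.256 in control islets at 10 weeks, and 0.3402, 0.124 and 0.2004 in IUGR and 2.38, 1.15 and 0.745 in control islets at 2 weeks. The 3 control libraries at 2 weeks stood above all others, and the groups rest on 7, 16, 44 and 180 counts in that order. It was lower in IUGR islets at 2 weeks (log2 fold change -2.65 ± 0.58, adjusted p = 0.0455), and it fell with age in control islets (-3.10 ± 0.65, adjusted p = 0.00499). Kcnj4 is a member only through the control islets of 2 weeks, so both calls were favoured by the limit for membership. Control replicate 1 at 2 weeks held the highest value, and without it the IUGR value at 2 weeks was -2.08 (adjusted p = 0.168). Kcnj12, a further strong rectifier, fell in IUGR islets at 10 weeks (log2 fold change -1.10 ± 0.35, adjusted p = 0.0362) and with age in IUGR islets (-1.83 ± 0.33, adjusted p = 0.000788). The 10-week call of Kcnj12 was lost without IUGR replicate 1 or 3 at 10 weeks, control replicate 2 or 3 at 10 weeks or IUGR replicate 2 at 2 weeks (adjusted p of 0.0529 to 0.112). Kcnj10, Kcnj13 and Kcnj14 passed in no comparison, with log2 fold changes for condition and age between -1.19 (Kcnj13) and 0.62 (Kcnj10).

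The 4 G protein-gated inward rectifiers, which hormones and transmitters open through receptors coupled to inhibitory G proteins, split into a pair that rose with age and a pair that did not pass. Kcnj6 had 0.779, 0.573 and 0.717 TMM-scaled CPM in IUGR and 0.254, 0.306 and 0.183 in control islets at 10 weeks, and 0.0992, 0.264 and 0.234 in IUGR and 0.0858, 0.0782 and 0.118 in control islets at 2 weeks. It was higher in IUGR islets at 10 weeks (log2 fold change 1.44 ± 0.38, adjusted p = 0.0178, 0.66 on the endocrine scale) and rose with age in IUGR islets (1.79 ± 0.36, adjusted p = 0.00155) and control islets (1.39 ± 0.45, adjusted p = 0.036). The 10-week values of the IUGR islets lay above all others, at levels near the limit for membership. Kcnj6 reached that limit only in this group, so its 10-week call and its age call in IUGR islets were favoured by the limit. The call between IUGR and control islets was lost without control replicate 3 (adjusted p = 0.0703) or IUGR replicate 1 (adjusted p = 0.0551) of that age. Without control replicate 1 or 2 of either age the control age call was lost too, with adjusted p-values of 0.0815 to 0.113.

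Kcnj3 had 3.62, 2.89 and 3.04 TMM-scaled CPM in IUGR and 2.598, 2.35 and 2.01 in control islets at 10 weeks, and 1.998, 1.24 and 1.12 in IUGR and 0.572, 0.821 and 0.902 in control islets at 2 weeks. It was above its control values in every IUGR library at both ages, though neither difference passed (0.45 ± 0.25, adjusted p = 0.187 at 10 weeks and 0.91 ± 0.26, adjusted p = 0.0643 at 2 weeks, with -0.33 and 0.52 on the endocrine scale). Kcnj3 rose with age in IUGR islets (1.13 ± 0.25, adjusted p = 0.00247) and control islets (1.59 ± 0.26, adjusted p = 0.00141), but the IUGR value was -0.17 on the endocrine scale. Kcnj5 and Kcnj9 did not pass in any comparison.

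Of 9 members with paired pore domains, background channels that hold the resting voltage, 2 rose and 1 fell in IUGR islets at 10 weeks and none passed at 2 weeks. Kcnk16, a background channel of islet cells, had 68.3, 56.3 and 73.3 TMM-scaled CPM in IUGR and 50.7, 34.4 and 27.9 in control islets at 10 weeks, and 51.5, 38.2 and 45.1 in IUGR and 28.5, 29.1 and 46.7 in control islets at 2 weeks. The 10-week IUGR libraries lay above all others. It rose in IUGR islets at 10 weeks (log2 fold change 0.81 ± 0.24, adjusted p = 0.0302), with 0.05 on the endocrine scale, and did not pass with age in either condition (0.55 ± 0.24, adjusted p = 0.0688 in IUGR and 0.11 ± 0.24, adjusted p = 0.735 in control islets). The call was lost without control replicate 2 or 3 or IUGR replicate 1 or 3 at 10 weeks, with adjusted p-values of 0.0753 to 0.113.

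Kcnk2, a channel opened by stretch and lipids, had 5.900, 4.11 and 8.06 TMM-scaled CPM in IUGR and 2.66, 3.103 and 2.56 in control islets at 10 weeks, and 1.13, 2.095 and 2.22 in IUGR and 0.6296, 1.29 and 1.41 in control islets at 2 weeks. It rose in IUGR islets at 10 weeks (log2 fold change 1.11 ± 0.34, adjusted p = 0.0312), with 0.31 on the endocrine scale and -0.18 in the acinar-adjusted fit, and the call was lost without IUGR replicate 1 or 3 at 10 weeks or control replicate 1, 2 or 3 at 10 weeks (adjusted p of 0.0501 to 0.115). It also rose with age in IUGR islets (1.73 ± 0.34, adjusted p = 0.00125) and control islets (1.30 ± 0.35, adjusted p = 0.017). Its relative Kcnk10 had 0.167, 0.124 and 0.0741 TMM-scaled CPM in IUGR and 0.222, 0.494 and 0.256 in control islets at 10 weeks, and 0.411, 0.528 and 0.802 in IUGR and 0.229, 0.391 and 0.353 in control islets at 2 weeks. The groups of Kcnk10 rest on 14, 35, 111 and 46 counts in that order. Kcnk10 is a member only with the IUGR libraries of 2 weeks, so its calls that involve them were favoured by the limit. Kcnk10 fell in IUGR islets at 10 weeks (log2 fold change -1.44 ± 0.48, adjusted p = 0.0459) and with age in IUGR islets (-2.23 ± 0.45, adjusted p = 0.00148), and the IUGR effects at the 2 ages differed (-2.25 ± 0.62, adjusted p = 0.0347). Its 10-week call was lost in 9 of 12 fits without 1 library, and held without control replicate 1 at 10 weeks, IUGR replicate 3 at 2 weeks or control replicate 1 at 2 weeks (adjusted p of 0.0532 to 0.219 where lost). The call of the difference was lost in 8 of 12 fits without 1 library, and held without IUGR replicate 1 at 10 weeks, control replicate 1 at 10 weeks, IUGR replicate 1 at 2 weeks or control replicate 2 at 2 weeks (adjusted p of 0.0548 to 0.103 where lost). Kcnk1 rose with age in IUGR islets (0.74 ± 0.23, adjusted p = 0.0163), with -0.56 on the endocrine scale, a call that was lost without IUGR replicate 2 at 2 weeks (adjusted p = 0.067). Kcnk5 fell (-1.47 ± 0.41, adjusted p = 0.0105). Kcnk3, Kcnk6, Kcnk12 and Kcnk13 passed in no comparison.

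Of the 11 voltage-gated pore subunits 2 rose in IUGR islets at 10 weeks, Kcna4 and Kcnb2, and 1 fell at 2 weeks, Kcna2. Kcna2 and Kcna4 belong to the Shaker family, whose pores assemble with one another. Kcna2 had 16.98, 14.2 and 19.9 TMM-scaled CPM in IUGR and 13.9, 13.7 and 7.74 in control islets at 10 weeks. At 2 weeks it had 3.005, 2.34 and 3.66 in IUGR and 16.3, 7.92 and 5.96 in control islets. The 3 IUGR libraries at 2 weeks were the lowest of the 12, and the 3 at 10 weeks were above the controls of that age on this TMM scale. The 2-week IUGR libraries were lower than controls (log2 fold change -1.74 ± 0.36, adjusted p = 0.0431), the 10-week difference did not pass (0.53 ± 0.34, adjusted p = 0.275), and the difference between them passed (2.26 ± 0.50, adjusted p = 0.0138). Kcna2 rose with age in IUGR islets (2.50 ± 0.37, adjusted p = 0.000189, 5.67-fold) and its value in control islets was 0.24 ± 0.35, adjusted p = 0.616, and on the endocrine scale these were 1.20 and -0.84.

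Control replicate 1 at 2 weeks held the highest 2-week value of Kcna2. Without that library the 2-week log2 fold change of Kcna2 was -1.21 (adjusted p = 0.13) and the difference between ages 1.74 (adjusted p = 0.017). Over all 12 such fits the difference between ages ran from 1.74 to 2.53 and passed in each. On the endocrine scale it was 2.04 (adjusted p = 0.0365), with -2.28 (adjusted p = 0.0402) at 2 weeks and -0.24 (adjusted p = 0.593) at 10 weeks, so that the 10-week value turned negative. In the acinar-adjusted fit the difference was 2.40 (adjusted p = 0.0201), and the 2-week value was -1.57 (adjusted p = 0.314). At 2 weeks that fit called 0 of 20733 transcripts in either direction, so the lost call says nothing particular to Kcna2. At 2 weeks Kcna2 had the same order over the 6 libraries as the acinar share, which was 6.14, 4.23 and 9.09% in IUGR and 41.03, 21.9 and 20.9% in control replicates 1, 2 and 3. At 10 weeks the 3 IUGR libraries had the lowest acinar shares and the highest Kcna2 values.

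Kcna4 had 20.1, 12.5 and 21.1 TMM-scaled CPM in IUGR and 9.22, 9.098 and 8.69 in control islets at 10 weeks, and 2.98, 3.45 and 4.12 in IUGR and 1.49, 1.94 and 2.35 in control islets at 2 weeks. The 4 groups did not overlap, with the 10-week IUGR libraries highest and the 2-week controls lowest. Kcna4 rose in IUGR islets at 10 weeks (log2 fold change 0.99 ± 0.21, adjusted p = 0.0075) and did not pass at 2 weeks (0.86 ± 0.22, adjusted p = 0.0546), with 0.19 and 0.49 on the endocrine scale. It rose with age in IUGR islets (2.35 ± 0.22, adjusted p = 1.13e-05, 5.09-fold) and control islets (2.21 ± 0.22, adjusted p = 0.00015, 4.64-fold), and these calls held on the endocrine scale (1.02 and 1.33). The ratio of Kcna2 to Kcna4 counts within a library, chosen after the values had been seen, had a median of 0.946 in IUGR and 1.5 in control libraries at 10 weeks, and 0.887 in IUGR and 4.09 in control libraries at 2 weeks. It did not overlap between IUGR and control libraries at 2 weeks (exact permutation p = 0.1, the smallest possible).

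The windows before the starts of Kcna2 (chr2:197393280-197393529, plus strand) and Kcna4 (chr3:114215086-114215335, plus strand) are shown because at 2 weeks these relatives had log2 fold changes of opposite sign in IUGR islets, of which that of Kcna2 passed. Each is 250 bases from RefSeq on GRCr8, 5′ to 3′ on the strand of the gene, with GC boxes and the CCAAT box, on either strand, in capitals.
Kcna2: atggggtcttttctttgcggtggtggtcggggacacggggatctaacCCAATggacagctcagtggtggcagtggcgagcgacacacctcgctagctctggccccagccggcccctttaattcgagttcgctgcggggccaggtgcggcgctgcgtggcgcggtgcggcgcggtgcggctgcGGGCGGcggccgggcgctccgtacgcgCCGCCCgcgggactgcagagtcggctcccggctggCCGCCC
Kcna4: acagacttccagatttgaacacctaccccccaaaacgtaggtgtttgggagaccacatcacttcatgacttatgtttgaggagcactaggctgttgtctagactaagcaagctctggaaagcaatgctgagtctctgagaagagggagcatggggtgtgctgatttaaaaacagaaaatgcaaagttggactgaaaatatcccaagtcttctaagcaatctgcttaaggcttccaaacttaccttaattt
The Kcna2 window held 3 GC boxes and 1 CCAAT box at a GC content of 72.4%, and the Kcna4 window held none of the motifs searched at a GC content of 42.8%. The share of all windows with each motif is given above with those of Kcnj8 and Abcc9.

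Kcnb2, a delayed rectifier pore, rose in IUGR islets at 10 weeks (log2 fold change 0.68 ± 0.20, adjusted p = 0.0275), with -0.11 on the endocrine scale and -0.015 in the acinar-adjusted fit. The call was lost without control replicate 3 or IUGR replicate 1 or 3 of that age, with adjusted p-values of 0.0699 to 0.0993. Kcnb2 also rose with age in IUGR islets (1.27 ± 0.20, adjusted p = 0.000288) and control islets (0.87 ± 0.20, adjusted p = 0.00821), but on the endocrine scale these were -0.04 and -0.02.

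Kcna6 rose with age in IUGR (1.05 ± 0.26, adjusted p = 0.00535) and control islets (1.20 ± 0.27, adjusted p = 0.00698), with -0.26 and 0.27 on the endocrine scale. Kcna5 and Kcnd3, pores known from vascular and heart muscle, fell with age in IUGR islets, with -0.95 ± 0.22, adjusted p = 0.00339, for Kcna5 and -3.10 ± 0.67, adjusted p = 0.00233, for Kcnd3. Kcnd3 held 14 counts over the IUGR libraries of 10 weeks. It is a member only with the IUGR libraries of 2 weeks, so its call was favoured by the limit. Kcnc2, Kcnd1 and Kcnd2 passed in no comparison.

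Silent subunits form no channel alone and change the behaviour of the delayed rectifiers they join. Kcns3 had 0.751, 0.847 and 0.939 TMM-scaled CPM in IUGR and 1.55, 2.77 and 2.56 in control islets at 10 weeks, and 3.76, 4.75 and 4.49 in IUGR and 1.66, 3.34 and 2.88 in control islets at 2 weeks. IUGR islets were below control islets at 10 weeks and above them at 2 weeks, without overlap at either age. Kcns3 fell in IUGR islets at 10 weeks (log2 fold change -1.44 ± 0.29, adjusted p = 0.00641), did not pass at 2 weeks (0.71 ± 0.27, adjusted p = 0.118), and the 2 effects differed (-2.15 ± 0.40, adjusted p = 0.00704). It fell with age in IUGR islets (-2.35 ± 0.29, adjusted p = 6.24e-05), and its value in control islets was -0.20 ± 0.27, adjusted p = 0.593. The 10-week call held in all 12 fits without 1 library and in the acinar-adjusted fit (-2.50, adjusted p = 0.026). On the endocrine scale, which moved 10-week values down as a whole, the value was -2.27.

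Kcnv2, a silent subunit known from photoreceptors, had 0.139, 0.124 and 0.148 TMM-scaled CPM in IUGR and 0.856, 0.611 and 0.219 in control islets at 10 weeks, and 4.79, 2.62 and 2.49 in IUGR and 1.603, 3.07 and 2.001 in control islets at 2 weeks. The IUGR libraries of 10 weeks held 16 counts of Kcnv2 together. In all 6 libraries of 10 weeks Kcnv2 lay below all 6 of 2 weeks. It fell with age in IUGR islets (log2 fold change -4.56 ± 0.50, adjusted p = 3.13e-05) and control islets (-1.96 ± 0.43, adjusted p = 0.00607), and it was lower in IUGR than in control islets at 10 weeks (-2.03 ± 0.54, adjusted p = 0.0193) but not called at 2 weeks (0.56 ± 0.38, adjusted p = 0.343). The 2 IUGR effects differed (-2.60 ± 0.66, adjusted p = 0.0256). The 10-week call was lost without IUGR replicate 1, 2 or 3 at 10 weeks or control replicate 1 or 2 at 10 weeks (adjusted p of 0.0516 to 0.0609). The call of the difference was lost without IUGR replicate 1, 2 or 3 at 10 weeks, control replicate 2 at 10 weeks, IUGR replicate 1 at 2 weeks or control replicate 3 at 2 weeks (adjusted p of 0.0513 to 0.0642). Kcng2, Kcng3 and Kcng4 passed in no comparison.

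**Figure D4:**
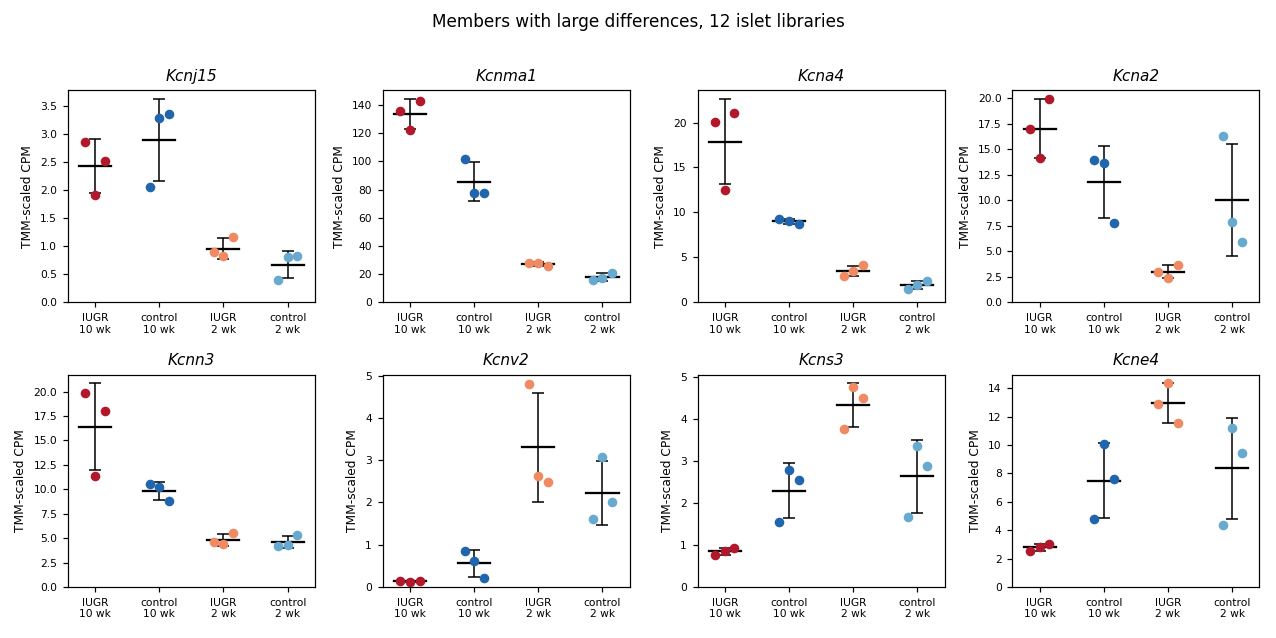
TMM-scaled CPM (y axes, linear from 0) of 8 members in each of the 12 libraries, with groups along the x axis, points for libraries, and a bar with whiskers for the mean and SD. Kcnj15, Kcnma1 and Kcna4 are higher in the 10-week than in the 2-week libraries, Kcna2 is lowest in the 3 IUGR libraries of 2 weeks, and Kcnv2, Kcns3 and Kcne4 are lowest in the 3 IUGR libraries of 10 weeks.

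Among the auxiliary subunits, Kcnip2 binds pores of the A-type current. It had 1.698, 1.89 and 1.53 TMM-scaled CPM in IUGR and 0.792, 0.729 and 0.475 in control islets at 10 weeks, and 0.638, 0.605 and 1.37 in IUGR and 0.6296, 0.704 and 0.824 in control islets at 2 weeks. The 10-week IUGR libraries were the highest. Kcnip2 rose in IUGR islets at 10 weeks (log2 fold change 1.35 ± 0.33, adjusted p = 0.0145), with 0.58 on the endocrine scale, and the call was lost without control replicate 3 of that age (adjusted p = 0.0598). With age it rose in IUGR islets (0.97 ± 0.32, adjusted p = 0.0218, -0.33 on the endocrine scale), a call that was lost without IUGR replicate 2 at 10 weeks or IUGR replicate 1 or 2 at 2 weeks (adjusted p of 0.0643 to 0.088). Kcnip3, which is also known as a calcium-regulated repressor of transcription, had 13.8, 18.7 and 11.5 TMM-scaled CPM in IUGR and 12.01, 8.18 and 10.1 in control islets at 10 weeks, and 5.77, 4.61 and 5.24 in IUGR and 3.32, 3.44 and 5.12 in control islets at 2 weeks. Every 10-week library lay above every 2-week library. Kcnip3 rose with age in IUGR (1.49 ± 0.22, adjusted p = 0.000208) and control islets (1.34 ± 0.23, adjusted p = 0.00158), with 0.19 and 0.45 on the endocrine scale.

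Kcnip1 rose with age in IUGR islets (0.77 ± 0.24, adjusted p = 0.0161, -0.53 on the endocrine scale), a call that was lost without IUGR replicate 2 or 3 at 2 weeks (adjusted p of 0.0579 to 0.0647). Kcnab1, a cytosolic partner of Shaker pores, fell with age in IUGR islets (-0.91 ± 0.15, adjusted p = 0.000376). Kcne3, a single-span subunit, had 0.696, 0.598 and 0.791 TMM-scaled CPM in IUGR and 0.665, 0.682 and 1.06 in control islets at 10 weeks, and 2.96, 2.13 and 2.72 in IUGR and 1.49, 1.98 and 1.73 in control islets at 2 weeks. It fell with age in IUGR islets (-1.90 ± 0.24, adjusted p = 6.49e-05) and control islets (-1.12 ± 0.24, adjusted p = 0.00526), with every 10-week library below every 2-week library. Kcnab2 and Kcnip4 passed in no comparison.

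Kcne4, a single-span subunit known from vascular muscle, had 2.505, 2.84 and 3.04 TMM-scaled CPM in IUGR and 4.82, 10.04 and 7.63 in control islets at 10 weeks, and 12.9, 14.4 and 11.5 in IUGR and 4.38, 11.2 and 9.44 in control islets at 2 weeks. IUGR islets were the lowest group at 10 weeks and the highest at 2 weeks. Kcne4 fell in IUGR islets at 10 weeks (log2 fold change -1.43 ± 0.33, adjusted p = 0.0112) and with age in IUGR islets (-2.21 ± 0.33, adjusted p = 0.000233), and the IUGR effects at the 2 ages differed (-2.05 ± 0.46, adjusted p = 0.0145). At 2 weeks its value was 0.62 ± 0.31, adjusted p = 0.207 and with age in control islets -0.16 ± 0.32, adjusted p = 0.724. The 10-week call held in all 12 fits without 1 library and in the acinar-adjusted fit (-3.01, adjusted p = 0.0132). The mural list moved the same way in these groups, as given for Kcnj8, and of its 8 markers 3 fell in IUGR islets at 10 weeks and none passed at 2 weeks.

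The KCNQ channels open slowly below the firing threshold and steady the membrane. Kcnq1 pairs with Kcne1 in a slow channel known from heart, inner ear and rodent acinar cells. Kcne1 had 0.417, 0.697 and 0.272 TMM-scaled CPM in IUGR and 38.3, 6.42 and 39.6 in control islets at 10 weeks, and 3.81, 1.89 and 4.56 in IUGR and 41.2, 13.2 and 15.8 in control islets at 2 weeks. IUGR and control libraries did not overlap at either age. Kcne1 fell in IUGR islets at 10 weeks (log2 fold change -5.91 ± 0.84, adjusted p = 0.00158) and at 2 weeks (-2.77 ± 0.66, adjusted p = 0.0488), and with age in IUGR islets (-2.88 ± 0.82, adjusted p = 0.011). Kcnq1 had 7.598, 4.28 and 3.29 TMM-scaled CPM in IUGR and 39.9, 13.96 and 55.7 in control islets at 10 weeks, and 12.8, 11.6 and 16.9 in IUGR and 68.8, 40.3 and 36.2 in control islets at 2 weeks. It fell in IUGR islets at 10 weeks (log2 fold change -2.85 ± 0.49, adjusted p = 0.00319) and with age in IUGR islets (-1.45 ± 0.47, adjusted p = 0.0216), and at 2 weeks it did not pass (-1.81 ± 0.46, adjusted p = 0.053). Its call with age was lost without IUGR replicate 2 or 3 at 10 weeks or IUGR replicate 3 at 2 weeks (adjusted p of 0.0663 to 0.0813).

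Kcne1 and Kcnq1 ran with the acinar share of the libraries. Control replicate 2 at 10 weeks, which had the lowest acinar share of the controls, 13.5%, also had the lowest control values of both genes. In the acinar-adjusted fit the 10-week log2 fold change was -0.59 for Kcne1 (adjusted p = 0.316) and 0.47 for Kcnq1 (adjusted p = 0.564), so that Kcnq1 changed sign. Without both 10-week control libraries of highest acinar share, which leaves only control replicate 2 at that age, they were -3.77 and -1.45. The ratio of Kcne1 to Kcnq1 counts within a library had a median of 0.0827 in IUGR and 0.711 in control libraries at 10 weeks, and 0.270 in IUGR and 0.438 in control libraries at 2 weeks (exact permutation p = 0.1 at each age, the smallest possible). Kcnq1 has 3 further transcripts that were tested, all of which fell in IUGR islets at 10 weeks, and in human and mouse an antisense gene overlaps Kcnq1, from whose reads those of Kcnq1 cannot be told apart here since the strand setting of the counting is not given in the sources used.

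Kcnq5 had 0.278, 0.299 and 0.124 TMM-scaled CPM in IUGR and 2.88, 1.08 and 3.47 in control islets at 10 weeks, and 1.36, 1.75 and 1.57 in IUGR and 3.52, 1.94 and 1.75 in control islets at 2 weeks. It fell in IUGR islets at 10 weeks (log2 fold change -3.39 ± 0.50, adjusted p = 0.00181), and the IUGR effects differed between ages (-2.77 ± 0.65, adjusted p = 0.0177). In the acinar-adjusted fit the 10-week value of Kcnq5 was -0.48 (adjusted p = 0.597). Without both 10-week control libraries of highest acinar share the difference between ages was -1.60 in place of -2.77. Kcnq5 fell with age in IUGR islets (-2.73 ± 0.50, adjusted p = 0.000781) and its value in control islets was 0.04 ± 0.41, adjusted p = 0.95.

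**Figure D5:**
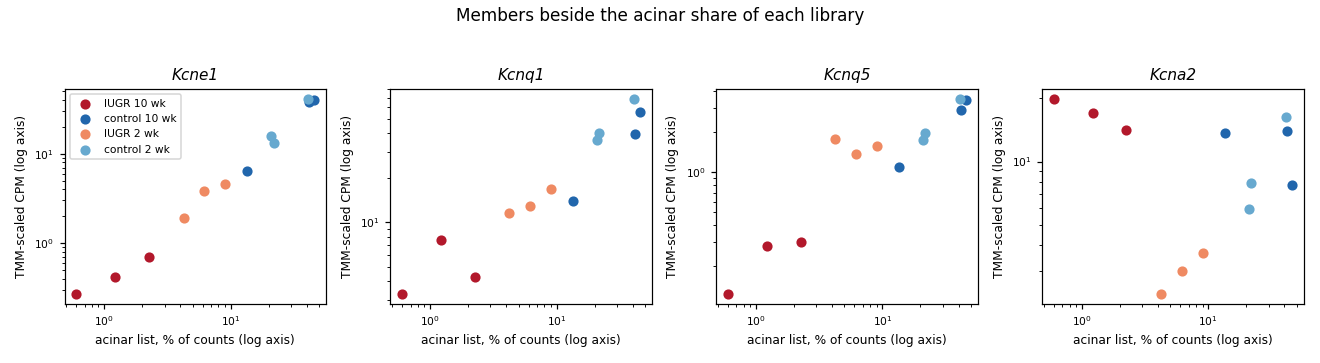
TMM-scaled CPM of Kcne1, Kcnq1, Kcnq5 and Kcna2 (y axes, log scale) against the percentage of a library's counts that fell on acinar genes (x axis, log scale), 1 point for each of the 12 libraries, coloured by group. Kcne1 runs along the acinar share from the 3 IUGR libraries of 10 weeks, at 0.602 to 2.25%, to the controls, while the lowest Kcna2 values are those of the 3 IUGR libraries of 2 weeks, at 4.23 to 9.09%.

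Kcnq3, a pore of the neuronal M current, had 0.0557, 0.0498 and 0.148 TMM-scaled CPM in IUGR and 0.158, 0.635 and 0.256 in control islets at 10 weeks, and 0.822, 0.791 and 0.618 in IUGR and 0.286, 0.313 and 0.275 in control islets at 2 weeks. At 10 weeks the IUGR libraries lay below the controls and at 2 weeks above them, and the groups rest on 10, 39, 146 and 40 counts in that order. Kcnq3 is a member only with the IUGR libraries of 2 weeks, so its calls that involve them were favoured by the limit. Kcnq3 fell in IUGR islets at 10 weeks (log2 fold change -2.05 ± 0.57, adjusted p = 0.0221), did not pass at 2 weeks (1.34 ± 0.44, adjusted p = 0.0901), and the 2 effects differed (-3.39 ± 0.72, adjusted p = 0.0118). The 10-week call was lost without control replicate 2 (log2 fold change -1.21, adjusted p = 0.13) or IUGR replicate 1 or 2 of that age (adjusted p = 0.0724 and 0.0746), while the difference passed in every such fit. With age Kcnq3 fell in IUGR islets (-3.08 ± 0.53, adjusted p = 0.000523) and its value in control islets was 0.31 ± 0.48, adjusted p = 0.637. A list of 8 neuron genes had 4 lower and 1 higher in IUGR islets at 10 weeks, and 3 higher at 2 weeks, and all 7 Schwann cell genes fell with age in IUGR islets. The summed neuron list was 77.7 to 102 TMM-scaled CPM in IUGR and 77.5 to 94.7 in control libraries at 10 weeks, and 87.4 to 93.5 in IUGR and 60.3 to 78.6 in control libraries at 2 weeks, with no marker at 0. That of the Schwann cell list was 7.12 to 8.27 in IUGR and 11.7 to 31.2 in control libraries at 10 weeks, and 43.2 to 52.2 in IUGR and 17.7 to 36.8 in control libraries at 2 weeks, and the part of nerve cells in Kcnq3 was not tested.

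Of the 5 EAG, ERG and ELK channels, Kcnh6 and Kcnh2 encode ERG pores, which shape the end of the action potential. Kcnh6 had 62.04, 48.6 and 49.2 TMM-scaled CPM in IUGR and 33.9, 35.8 and 30.5 in control islets at 10 weeks, and 42.99, 35.7 and 41.3 in IUGR and 32.7, 37.3 and 55.6 in control islets at 2 weeks. It rose in IUGR islets at 10 weeks (log2 fold change 0.67 ± 0.18, adjusted p = 0.0198), with -0.13 on the endocrine scale, and the call was lost without control replicate 3 (adjusted p = 0.0723) or IUGR replicate 1 (adjusted p = 0.0716) of that age. Kcnh2 rose with age in IUGR islets (0.92 ± 0.15, adjusted p = 0.000328) and control islets (0.54 ± 0.15, adjusted p = 0.0172), but on the endocrine scale its values were -0.39 and -0.43. The control call of Kcnh2 was lost without control replicate 2 at 2 weeks (adjusted p = 0.0672) or control replicate 1 at 10 weeks (adjusted p = 0.0816). Kcnh8 fell with age in IUGR islets (-1.45 ± 0.37, adjusted p = 0.00657), and Kcnh1 and Kcnh7 passed in no comparison.

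The calcium-activated channels couple the calcium that enters during an action potential to repolarisation. Kcnma1, the pore of the large-conductance channel, had 136, 122 and 143 TMM-scaled CPM in IUGR and 102, 77.6 and 77.5 in control islets at 10 weeks, and 27.9, 27.9 and 25.6 in IUGR and 15.9, 17.1 and 20.99 in control islets at 2 weeks. The 4 groups did not overlap, with the 10-week IUGR libraries highest and the 2-week controls lowest. Kcnma1 rose in IUGR islets at 10 weeks (log2 fold change 0.64 ± 0.13, adjusted p = 0.00648) and at 2 weeks (0.59 ± 0.13, adjusted p = 0.0458), but on the endocrine scale these values were -0.14 and 0.20. It rose with age 4.92-fold in IUGR islets (2.30 ± 0.14, adjusted p = 1.73e-06) and 4.75-fold in control islets (2.25 ± 0.14, adjusted p = 1.02e-05), and this held on the endocrine scale at 0.98 and 1.32. The IUGR effect on Kcnma1 at 10 weeks minus that at 2 weeks did not pass (0.05 ± 0.19, adjusted p = 0.881).

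The accessory subunits of that channel went different ways. Kcnmb2 had 6.43, 8.29 and 9.91 TMM-scaled CPM in IUGR and 5.45, 3.79 and 5.18 in control islets at 10 weeks, and 2.296, 2.44 and 2.07 in IUGR and 1.202, 2.31 and 2.92 in control islets at 2 weeks. It rose with age in IUGR islets (1.86 ± 0.28, adjusted p = 0.000233) and control islets (1.15 ± 0.28, adjusted p = 0.0111), with 0.54 and 0.29 on the endocrine scale. Kcnmb1, the subunit of smooth muscle, and Kcnmb4, that of neurons, fell with age in IUGR islets, with -1.25 ± 0.30, adjusted p = 0.0041, for Kcnmb1 and -2.28 ± 0.44, adjusted p = 0.00122, for Kcnmb4. Neither passed between IUGR and control islets at either age. Kcnmb4 held 15 counts over the IUGR libraries of 10 weeks. It is a member only with the IUGR libraries of 2 weeks, so its call with age was favoured by the limit.

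The small-conductance pores carry the slow current after bursts of activity. Kcnn3 had 19.9, 11.4 and 17.99 TMM-scaled CPM in IUGR and 10.5, 10.2 and 8.799 in control islets at 10 weeks, and 4.56, 4.42 and 5.51 in IUGR and 4.24, 4.28 and 5.296 in control islets at 2 weeks. It rose in IUGR islets at 10 weeks (log2 fold change 0.73 ± 0.19, adjusted p = 0.018), where the groups did not overlap, with -0.06 on the endocrine scale. The 10-week call of Kcnn3 was lost without control replicate 3 or IUGR replicate 1 or 3 of that age, with adjusted p-values of 0.0585 to 0.0745. Kcnn3 rose with age in IUGR islets (1.76 ± 0.20, adjusted p = 3.33e-05) and control islets (1.10 ± 0.20, adjusted p = 0.00224).

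Kcnn2 had 6.43, 6.48 and 6.05 TMM-scaled CPM in IUGR and 6.37, 4.07 and 5.92 in control islets at 10 weeks, and 2.79, 2.03 and 1.97 in IUGR and 3.35, 2.91 and 3.26 in control islets at 2 weeks. It rose with age in IUGR islets (1.48 ± 0.19, adjusted p = 7.59e-05) and control islets (0.78 ± 0.19, adjusted p = 0.00985), with 0.18 and -0.17 on the endocrine scale. Kcnn1 rose in IUGR islets at 10 weeks (log2 fold change 0.78 ± 0.25, adjusted p = 0.0418, -0.03 on the endocrine scale) and with age in IUGR islets (0.98 ± 0.25, adjusted p = 0.00561, -0.33 on that scale), and its 10-week call was lost in 9 of 12 fits without 1 library, and held without IUGR replicate 2 at 10 weeks or control replicate 1 or 3 at 2 weeks (adjusted p of 0.0542 to 0.157 where lost). Kcnn4, the intermediate-conductance pore, passed in no comparison.

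Kcnt1 and Kcnt2 encode sodium-activated pores. Kcnt1 had 0.612, 0.747 and 0.445 TMM-scaled CPM in IUGR and 0.951, 1.72 and 1.17 in control islets at 10 weeks, and 1.15, 1.46 and 1.49 in IUGR and 1.26, 1.49 and 1.31 in control islets at 2 weeks. The 10-week IUGR libraries were the lowest. Kcnt1 fell in IUGR islets at 10 weeks (log2 fold change -1.10 ± 0.27, adjusted p = 0.0148) and with age in IUGR islets (-1.18 ± 0.27, adjusted p = 0.00315). Its 10-week call was lost without control replicate 2 or IUGR replicate 3 of that age (adjusted p = 0.059 and 0.053). Kcnt2 fell in the same 2 comparisons (-1.14 ± 0.39, adjusted p = 0.0479 for IUGR at 10 weeks and -1.38 ± 0.37, adjusted p = 0.00824 with age in IUGR islets), and its 10-week call was lost in 10 of 12 fits without 1 library, and held without IUGR replicate 2 at 10 weeks or control replicate 1 at 10 weeks (adjusted p of 0.056 to 0.181 where lost). In Kcnt2 the IUGR and control libraries of 10 weeks overlapped.

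Across the 22 calls at 10 weeks, those of Kcna4, Kcnma1, Kcne1, Kcne4, Kcnq1, Kcnq5 and Kcns3 held in all 12 fits that left out 1 library. The counts moved most without control replicate 3 at 10 weeks (2 higher and 9 lower), IUGR replicate 1 (3 and 7) or 3 (5 and 7), control replicate 2 (7 and 6) of that age and control replicate 1 at 2 weeks (15 and 15). The endocrine list, of which 11 of 14 genes rose in IUGR islets at 10 weeks with a median log2 fold change of 0.83, moved beside the members that rose. The acinar list, of which 25 of 26 fell with a median of -5.70, moved beside those that fell. So did the fibroblast list (8 of 9, median -1.98), the endothelial list (7 of 10, median -0.95) and the Schwann cell list (4 of 7, median -1.74). At 2 weeks the median of the acinar list was -2.70. Those of the fibroblast, endothelial and Schwann cell lists were then 0.72, 0.51 and 0.80. The summed fibroblast list was 300 to 376 TMM-scaled CPM in IUGR and 779 to 1654 in control libraries at 10 weeks, and 9127 to 10698 in IUGR and 4416 to 7776 in control libraries at 2 weeks. The summed endothelial list was 427 to 587 in IUGR and 631 to 1079 in control libraries at 10 weeks, and 901 to 1084 in IUGR and 502 to 823 in control libraries at 2 weeks. No marker of these lists was at 0 in a library, and their part in the members' values was not tested.

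Genes that work with these channels were read from 3 lists. On the TMM scale 12.4% of all transcripts rose and 15.5% fell in IUGR islets at 10 weeks. With age 27.3% rose and 29.2% fell in IUGR islets, and 17.2% rose and 15.1% fell in control islets. Of 9 tested channel partners, 2 rose in IUGR islets at 10 weeks and none at 2 weeks, and with age 6 rose in IUGR and 4 in control islets, with none lower. Dpp6, which brings A-type pores to the membrane, rose in IUGR islets at 10 weeks (0.63 ± 0.17, adjusted p = 0.0217) and with age in IUGR (1.01 ± 0.17, adjusted p = 0.000553) and control islets (0.86 ± 0.18, adjusted p = 0.00447), but on the endocrine scale these values were -0.15, -0.30 and -0.04. Nedd4l, a ubiquitin ligase that acts on ion channels, rose in IUGR islets at 10 weeks (0.26 ± 0.07, adjusted p = 0.0243) and with age in IUGR islets (0.54 ± 0.07, adjusted p = 0.000113), with -0.54 and -0.78 on the endocrine scale. Of 12 sodium and potassium pump genes, 1 rose and 3 fell in IUGR islets at 10 weeks, and none passed at 2 weeks. Atp1b1, a beta subunit of the pump, rose (0.71 ± 0.11, adjusted p = 0.00229, -0.08 on the endocrine scale), and Fxyd1, a pump regulator of muscle, fell (-2.47 ± 0.31, adjusted p = 0.00106). Of 25 genes between glucose uptake and calcium entry, 9 rose and 4 fell in IUGR islets at 10 weeks, and none passed at 2 weeks. With age 11 rose and 6 fell in IUGR islets, and 11 rose and 1 fell in control islets. On the endocrine scale none of the 3 lists had a gene called higher at 10 weeks, and 6 partners, 9 pump genes and 10 genes between glucose and calcium were lower, where 66.9% of all transcripts were lower.

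In that last list Slc2a2, the glucose transporter of rodent beta cells, rose in IUGR islets at 10 weeks (1.003 ± 0.207, adjusted p = 0.00683), and with age in IUGR (3.05 ± 0.22, adjusted p = 3.38e-06) and control islets (2.37 ± 0.22, adjusted p = 9.39e-05), with 0.22, 1.74 and 1.47 on the endocrine scale. Trpm4, a calcium-activated cation channel, fell in IUGR islets at 10 weeks (-2.08 ± 0.31, adjusted p = 0.00192). Cacna1d, a calcium channel pore of beta cells, was called for the difference between ages (0.69 ± 0.17, adjusted p = 0.0196, 0.33 with adjusted p = 0.567 on the endocrine scale) and so was Orai1, a calcium entry pore (-0.81 ± 0.20, adjusted p = 0.0242).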

How the data were processed

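The assay was total RNA sequencing of rat islets, with 12 libraries in the 4 groups of 3 named above. Per the labels' protocols, ribosomal RNA was removed from samples with an integrity number above 7 before stranded library preparation. TopHat2 2.0.9, bedtools, rn5 and mm9 are listed in the submitters' processing notes, with no role for each. Values in the deposited table are the authors' raw counts per transcript, whole numbers whose totals ran from 30396759 to 64201627 between libraries. How reads were assigned, the strand setting and the annotation used are not given in the sources used.

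The counts entered edgeR 4.0.16 (R 4.3.3) unchanged. After its default filter on low counts and TMM scaling, all 4 groups were fitted together with robust quasi-likelihood dispersions, and each comparison was a contrast of that fit with Benjamini-Hochberg adjustment over 20733 transcripts. A standard error is the size of the log2 fold change divided by the root of the F value. At this depth a member near 0.5 CPM has few counts per library and an imprecise value. Per symbol the transcript with the highest mean count was used, and 19 members had further transcripts among the deposited counts, not all of which were tested. Some of those tested differed in their calls, such as one of Kcnq1 at 2 weeks (log2 fold change -1.92, adjusted p = 0.0458), where the member did not pass.

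Members, lists and alternatives were chosen with earlier results of these data known. Values per library are given for the ATP-sensitive channel genes and Kcna2, for up to 12 members of smallest p at 10 weeks and for up to 4 more in each other comparison. Further members that passed between IUGR and control islets are named, and others were named after their values had been seen. Alternatives were RLE factors, DESeq2 1.42.0, no low-count filter, a threshold of 0.1, a replicate block, the acinar-adjusted fit, removal of the acinar list and the 20 most abundant transcripts, the endocrine scale, a fit of 6 libraries, 1 transcript per symbol, a limit of 1 CPM, removal of both 10-week control libraries of highest acinar share, and each library left out in turn. When both of those libraries are removed, the remaining 10-week control library is taken to vary like the other groups. With no replicate left in that group, only effect sizes of this fit are given and not its calls. Replicate libraries differed by more than counting noise, so none was a repeat read of another. Whether they came from 1 RNA source cannot be told from this. The steps were tested on simulated counts. A few genes that count among the members or lists are not reported here. Promoter windows and gene neighbours came from RefSeq tables of GRCr8, where all 69 symbols were found.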

Additional observations from a re-analysis of the deposited data

Results flagged for a closer look

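In the following 8 members the IUGR effect at 10 weeks differed from that at 2 weeks by a test of the difference itself (edgeR's quasi-likelihood test with Benjamini-Hochberg adjustment, 3 libraries in each of 4 groups). The difference on the log2 scale was 2.26 for Kcna2 (adjusted p = 0.0138), which was lower in 3 of 3 IUGR than in all control libraries at 2 weeks and higher in 3 of 3 at 10 weeks on the TMM scale, where the 10-week log2 fold change was 0.53 and on the endocrine scale -0.24. It was -3.39 for Kcnq3 (adjusted p = 0.0118), -2.77 for Kcnq5 (adjusted p = 0.0177), -2.60 for Kcnv2 (adjusted p = 0.0256) and -2.25 for Kcnk10 (adjusted p = 0.0347). It was -2.15 for Kcns3 (adjusted p = 0.00704), -2.05 for Kcne4 (adjusted p = 0.0145) and -1.54 for Kcnj2 (adjusted p = 0.0298). In Kcnq3, Kcns3, Kcne4, Kcnj2 and Kcnk10 the 3 IUGR libraries lay below the 3 control libraries at 10 weeks and above them at 2 weeks. Of these, Kcnq3 and Kcnk10 are members only with the IUGR libraries of 2 weeks, so their calls were favoured by the limit for membership.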

How the results depend on the processing

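Fits with RLE factors, 1 transcript per symbol and with the acinar list and the most abundant transcripts left out kept every count of called members within 1.5 times, as did a limit of 1 CPM. Counts over all transcripts stand in brackets after those of members. For IUGR against control at 2 weeks the main fit gave 1 higher and 3 lower (345 and 459). DESeq2 gave 5 and 5 (1790 and 1429), and no filter on low counts 0 and 0 (66 and 83). An adjusted p under 0.1 gave 6 and 5 (1498 and 1523), and the acinar covariate 0 and 0 (0 and 0). The endocrine scale gave 0 and 5 (5 and 909). The 6 libraries of the comparison gave 0 and 0 (0 and 0), where 22 members had an unadjusted p under 0.05. Leaving out 1 library gave 0 to 2 and 0 to 5 (0 to 1142 and 0 to 1292). At 10 weeks the main fit gave 10 and 12 (2570 and 3206). An adjusted p under 0.1 gave 16 higher (3678), and the covariate 1 and 5 (686 and 1504). The endocrine scale gave 0 and 32 (22 and 13878), and the 6 libraries 6 lower (2011). Leaving out 1 library gave 2 to 15 and 6 to 15 (1000 to 3468 and 1971 to 3553). With age in control islets the main fit gave 16 and 5 (3563 and 3130). An adjusted p under 0.1 and the covariate each gave 8 lower (4191 and 3786). The endocrine scale gave 5 and 36 (470 and 14781), and the 6 libraries 10 higher (1890). Leaving out 1 library gave 5 to 9 lower (2099 to 3229). With age in IUGR islets the main fit gave 22 and 23 (5661 and 6056), and the endocrine scale 4 and 47 (328 and 17078). For the difference between ages the main fit gave 1 and 8 (824 and 2149). DESeq2 gave 2 and 16 (1358 and 2961), and an adjusted p under 0.1 gave 4 and 16 (1680 and 3055). The covariate gave 4 and 15 (1841 and 3036). Leaving out 1 library gave 1 to 6 and 5 to 12 (393 to 2226 and 1330 to 2757). Signs turned at 10 weeks with the covariate for Kcnq1 (0.47), Kcnk2 (-0.18) and Kcnb2 (-0.015), and on the endocrine scale for Kcnh6 (-0.13), Kcnma1 (-0.14), Kcnn1 (-0.027), Kcnn3 (-0.059) and Kcnb2 (-0.11). With age in control islets they turned on the endocrine scale for Kcnj11 (-0.20), Abcc8 (-0.78), Kcnn2 (-0.17), Kcnh2 (-0.43) and Kcnb2 (-0.023). In IUGR islets they turned for Kcnj11 (-0.38), Abcc8 (-0.82), Kcnip2 (-0.33), Kcnip1 (-0.53), Kcnn1 (-0.33), Kcnk1 (-0.56), Kcnj3 (-0.17), Kcnh2 (-0.39), Kcna6 (-0.26) and Kcnb2 (-0.038). The cause of these changes was not tested. Deviations from the group mean were correlated between libraries of different groups. Over 18 same-numbered pairs the correlation ran from -0.137 to 0.478, and in 8 it was over 0.1. Over pairs of unlike number it ran from -0.457 to 0.312. The highest was between replicates 2 of the control groups. What the numbers stand for was not tested, and the main fit does not use them. The replicate block gave 4 higher and 4 lower at 2 weeks (599 and 624 over all transcripts). It gave 10 and 14 at 10 weeks (2375 and 3188), and 1 and 12 for the difference (857 and 2378). Depth limits the members of lowest count. Over the IUGR libraries of 10 weeks Kcnj4, Kcnq3 and Kcnk10 had 7, 10 and 14 counts, and Kcnd3, Kcnmb4 and Kcnv2 had 14, 15 and 16. No member had 3 counts or fewer over a group.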
